A study of Mus musculus with 12 samples.

Results

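The genes described here are the D-type cyclins and the regulators of the cyclin-dependent kinases (CDKs) of G1: Ccnd1, Ccnd2 and Ccnd3, Cdk4 and Cdk6, the CDK inhibitor genes Cdkn1a, Cdkn1b and Cdkn2c, and the pocket protein genes Rb1 and Rbl2. They were taken by gene symbol, and all 10 were present among the 12151 genes of the expression table. The study compared the transcriptomes of mouse pre-B cells before and after stabilization of β-catenin, in cells with and without the lymphoid transcription factors Ikzf1 and Ikzf3. Each of the 4 groups held 3 RNA-seq libraries, 12 in all.

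Every group started from bone marrow pre-B cells of mice aged 6 to 12 weeks, carried the Ctnnb1Ex3fl/+ genotype and was transformed with BCR-ABL1, the fusion kinase of Philadelphia chromosome-positive leukemia. In this heterozygous allele exon 3 of Ctnnb1, which encodes the residues that mark β-catenin for degradation, is flanked by loxP sites, so that Cre leaves a stabilized protein. ERT2 libraries came from cells with the empty vector and Cre-ERT2 libraries from cells with the tamoxifen-inducible recombinase, both sorted for the GFP of the vector. The notes give 4-OHT treatment of 1 day, in a sentence written for ChIP-seq. WT libraries came from cells electroporated with a non-targeting guide (sgNTC) and KO libraries from cells that received guides against Ikzf1 and Ikzf3. WT and KO lines were grown from single cells, and nothing says whether the 3 libraries of a group were separate lines or cultures, so that p-values measure only the spread between these libraries, which may be technical. A difference between clones and a difference between genotypes cannot be told apart here, nor can the presence of Cre and the excision it causes.

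D-type cyclins are the labile activators of CDK4 and CDK6. Their complexes phosphorylate the retinoblastoma protein and its relatives, which releases E2F factors and lets a cell pass from G1 into S phase. Proteins of the INK4 family, such as p18 from Cdkn2c, bind CDK4 and CDK6 alone, whereas p21 from Cdkn1a and p27 from Cdkn1b act on cyclin-CDK complexes and also inhibit CDK2. In B cell precursors cyclin D3 and cyclin D2 drive the proliferation that follows the pre-B cell receptor and IL-7 receptor, and CDK6 is a known requirement of BCR-ABL1-driven leukemia.

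The guides are shown because they define the KO label, with the 3 bases of the PAM in capitals. The Ikzf1 guide matched chr11:11707798-11707817 of GRCm38, on the strand opposite to the gene, within the coding sequence of exon 3. The Ikzf3 guide matched chr11:98490523-98490542, on the strand of the gene, within the coding sequence of exon 4.
Ikzf1 guide: ctggagtgtcactgactgggGGG
Ikzf3 guide: attatgaagccggagcccatGGG

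Promoter entries of RefSeq (GRCm38.p6) matched 7 of the 10 genes, with 10 start sites, and none was held for Ccnd1, Ccnd2 or Rb1. The 250 bases before 5 starts are printed as examples of each role: those of both kinases, Cdk6 and Cdk4, of Cdkn2c, the inhibitor with the largest KO change, and the upstream and downstream starts of Ccnd3, the only D cyclin with an entry. Cdkn1a and Cdkn1b also moved with the KO label and are not printed. Capitals mark matches, on either strand, to the Ikaros core GGGAA, the E-box CACGTG bound by Myc, the TCF/LEF motif ATCAAAG, the FOXO motif GTAAACA, the STAT motif TTCNNNGAA or the E2F motifs TTTGGCGC and TTTCCCGC. The last of these contains the reverse complement of the Ikaros core.
Cdk6, chr5:3343643-3343892, plus strand: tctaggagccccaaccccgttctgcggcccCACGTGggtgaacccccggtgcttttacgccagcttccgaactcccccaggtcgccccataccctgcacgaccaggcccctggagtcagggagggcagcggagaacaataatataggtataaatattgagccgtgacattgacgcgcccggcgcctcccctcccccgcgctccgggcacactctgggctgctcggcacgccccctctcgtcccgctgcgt
Cdkn2c, chr4:109666757-109667006, minus strand: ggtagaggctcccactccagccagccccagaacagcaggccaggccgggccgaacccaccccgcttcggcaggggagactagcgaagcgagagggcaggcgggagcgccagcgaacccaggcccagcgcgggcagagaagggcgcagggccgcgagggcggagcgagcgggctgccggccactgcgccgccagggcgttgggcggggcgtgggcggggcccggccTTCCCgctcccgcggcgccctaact
Ccnd3 upstream, chr17:47504801-47505050, plus strand: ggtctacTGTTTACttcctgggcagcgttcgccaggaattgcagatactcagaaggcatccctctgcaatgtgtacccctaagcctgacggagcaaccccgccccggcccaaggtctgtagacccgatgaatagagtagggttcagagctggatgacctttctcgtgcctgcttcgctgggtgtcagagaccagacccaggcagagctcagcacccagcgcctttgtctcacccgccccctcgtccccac
Ccnd3 downstream, chr17:47593217-47593466, plus strand: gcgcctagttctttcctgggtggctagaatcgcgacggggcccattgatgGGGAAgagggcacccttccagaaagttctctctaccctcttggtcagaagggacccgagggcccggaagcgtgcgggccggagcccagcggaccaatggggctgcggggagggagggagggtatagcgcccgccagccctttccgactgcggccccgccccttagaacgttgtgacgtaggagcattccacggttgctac
Cdk4, chr10:127063285-127063534, plus strand: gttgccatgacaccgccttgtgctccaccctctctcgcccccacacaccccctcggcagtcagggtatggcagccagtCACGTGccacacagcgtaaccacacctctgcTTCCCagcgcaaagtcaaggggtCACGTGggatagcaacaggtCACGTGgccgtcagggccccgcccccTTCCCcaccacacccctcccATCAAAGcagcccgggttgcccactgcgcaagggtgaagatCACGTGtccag

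The Cdk6 and Cdkn2c stretches lie inside the annotated spans of these genes, which begin at chr5:3341485 and chr4:109667189 in the direction of transcription. They therefore precede internal starts. The Cdk6 stretch held 1 E-box and no Ikaros core. The Cdkn2c stretch held 1 Ikaros core, 25 bases before the start, the upstream Ccnd3 stretch 1 FOXO match, and the downstream Ccnd3 stretch 1 Ikaros core in its 5′ part. Cdk4 held 4 E-boxes, 2 Ikaros cores and 1 TCF/LEF match. Among 32851 mouse promoters of this length, 56.2% held the Ikaros core, 6.02% the E-box, 3.21% the TCF/LEF motif, 3.17% the FOXO motif, 7.02% the STAT motif, and 0.417% and 0.895% the 2 E2F motifs. Counting the 5 stretches not printed, which belong to Cdkn1a, Cdkn1b, Rbl2 and another start of Cdkn2c, 5 of the 10 held an Ikaros core. None of the 10 held a STAT or E2F match. These are matches of letters and no measure of binding.

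Values are the normalized log2 expression that the authors deposited, without read counts, so the depth behind each value is unknown and no counting interval can be given. Library medians lay between 9.06 and 9.11. The targeted genes went apart: Ikzf3 averaged 11.63 ± 0.049 in ERT2 WT and 10.98 ± 0.014 in ERT2 KO libraries, whereas Ikzf1 averaged 13.74 ± 0.012 and 14.75 ± 0.0067 (SD, n = 3 each). Ikzf1 mRNA was therefore not lower in the libraries labelled KO. The study reports a western blot check of Ikaros factor deletion in its single-cell-derived clones, and protein was not measured here. Below, "KO" stands for the library label. The 10 pre-B cell markers used, such as Cd79a and Vpreb1, were all in the table, but their summed level (log2 of the unlogged sum) was 16.73 to 16.76 in WT and 16.32 to 16.37 in KO libraries. Cd79a (a mean of 15.10 in ERT2 WT and 14.31 in ERT2 KO) carried much of that sum. Dntt (12.64 and 11.77), Blnk (13.30 and 12.65), Vpreb1 (13.30 and 12.75), Igll1 (12.91 and 12.75) and Cd79b (12.80 and 12.64) were also lower in ERT2 KO cells. Rag1 (11.47 and 11.80) and Rag2 (9.58 and 9.96) were higher there, and Pax5 (13.77 and 13.74) and Ebf1 (14.002 and 13.96) nearly level. Of 6 T cell markers only Lck was listed, and Cd3e, Cd3d, Cd4, Cd8a and Trac were not in the table. Of 7 myeloid markers Lyz2 and Itgam were listed, while Mpo, Csf1r, Cd14, Elane and S100a8 were not, nor was any of 5 erythroid or 4 stromal markers. Lck averaged 8.88 in ERT2 WT, 9.68 in Cre-ERT2 WT, 7.43 in ERT2 KO and 7.75 in Cre-ERT2 KO cells, so that it moved with β-catenin as well as with the KO label. Lyz2 averaged 7.41, 7.38, 8.40 and 8.61 in the same order and Itgam 4.66, 4.70, 4.51 and 4.52, so that the myeloid markers moved in opposite directions with the KO label. The part of these marker shifts in the KO and β-catenin comparisons below was not tested. In bulk RNA, fewer cells of a kind and less of an RNA per cell cannot be told apart.

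Comparing KO with WT cells asks which of these genes differ with the Ikzf1 and Ikzf3 label. Comparing Cre-ERT2 with ERT2 libraries asks which differ with the vector that stabilizes β-catenin. Below, a β-catenin effect or change names this Cre-ERT2 against ERT2 difference, in which Cre itself and the excision cannot be told apart. Differences were tested with limma, and a gene was called at a Benjamini-Hochberg adjusted p under 0.05 over all 12151 genes. In KO cells without Cre, 7 of the 10 genes differed from WT (3 higher, 4 lower), against 59.0% of all genes (29.8% higher, 29.3% lower). In Cre-ERT2 cells 9 of 10 differed by the KO label (4 higher, 5 lower), against 58.9% of all genes (30.4% higher, 28.6% lower). Since most genes were called in these comparisons, the counts say little about these 10. The median size of the change was 0.56 and 0.59 log2 units over the 10 genes, and 0.10 and 0.11 over all genes. The 10 genes were chosen with earlier results of these data known. Shares and sizes set beside those of all genes, here and for β-catenin, are therefore descriptive.

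Stabilized β-catenin moved 5 of the 10 genes in WT cells (2 higher, 3 lower), against 11.9% of all genes (5.93% higher, 5.95% lower). In KO cells it moved 5 (3 higher, 2 lower), against 12.6% of all genes (7.27% higher, 5.33% lower). These shifts were small, with a median size of 0.094 and 0.12 log2 units over the 10 genes and 0.036 and 0.037 over all genes. The β-catenin effect itself differed between KO and WT cells for 1 gene, Ccnd2, against 4.53% of all genes (2.71% more positive in KO cells, 1.82% more negative). The WT and KO effects share no library, but each group enters a KO comparison and a β-catenin comparison.

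**Figure D1:**
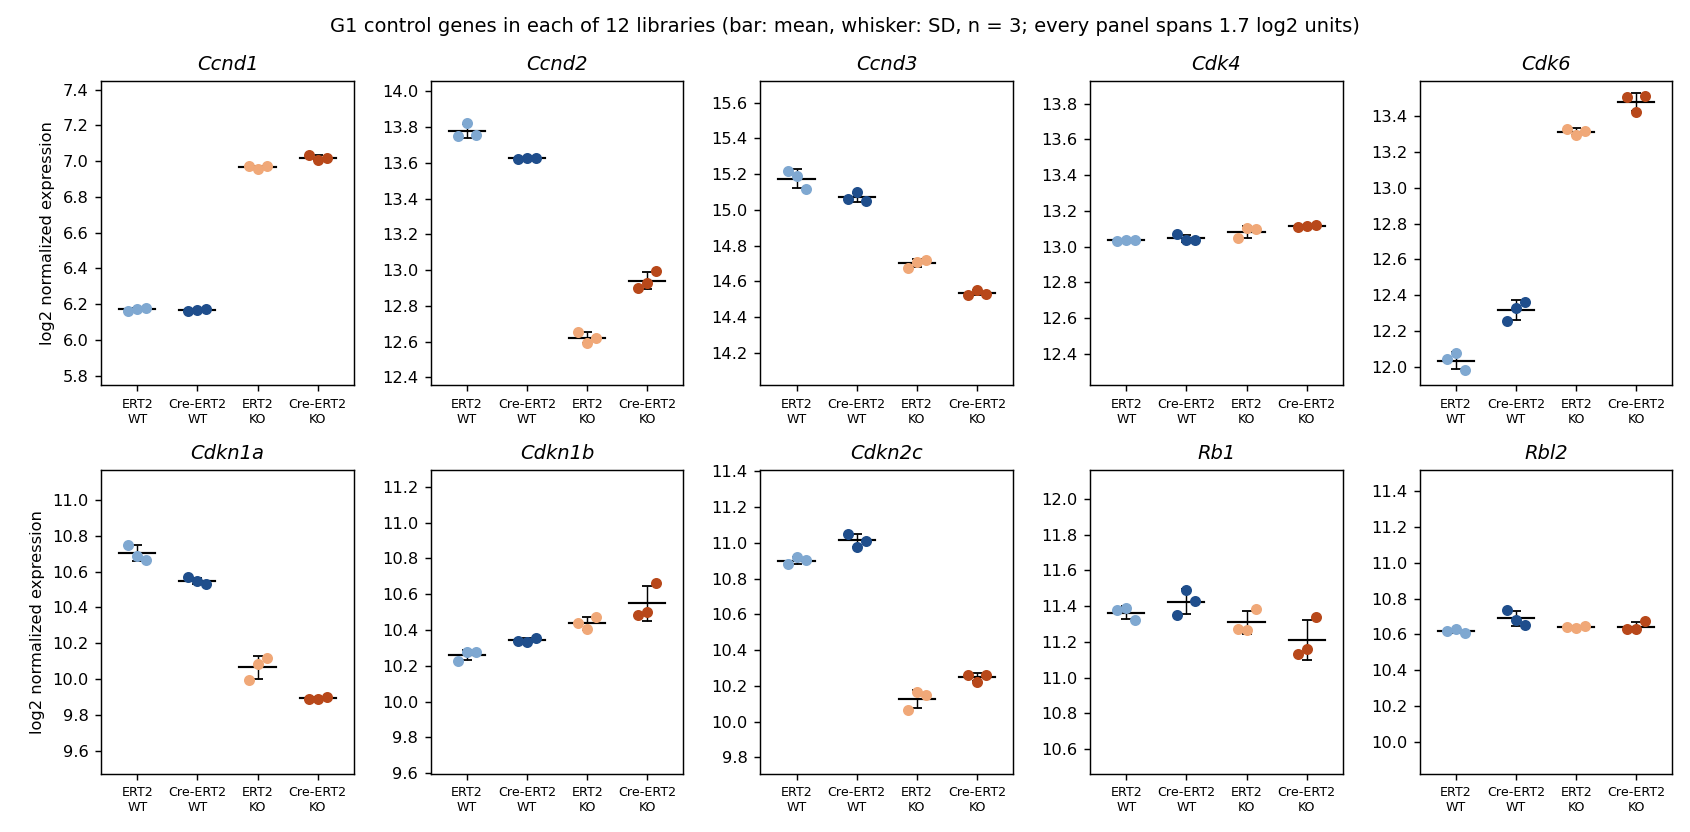
Normalized log2 expression of the 10 genes (y axis, every panel spanning the same range) in the 12 libraries (points) by group (x axis), with the mean (bar) and SD (whisker) of 3 libraries. Ccnd2, Ccnd3, Cdkn1a and Cdkn2c lie lower and Ccnd1, Cdk6 and Cdkn1b higher in every KO library than in every WT library, while Cdk4 and Rbl2 are nearly level.

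Ccnd2, encoding cyclin D2 (ENSMUSG00000000184, chr6:127125162-127152193, minus strand), was the gene that changed direction. It stood at 13.75, 13.82 and 13.75 in ERT2 WT libraries and at 13.62, 13.63 and 13.62 in Cre-ERT2 WT libraries. In ERT2 KO libraries it stood at 12.65, 12.59 and 12.62, and in Cre-ERT2 KO libraries at 12.90, 12.93 and 12.99. The groups ran, from high to low, ERT2 WT, Cre-ERT2 WT, Cre-ERT2 KO and ERT2 KO, and no neighbours in this order overlapped.

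Without Cre, Ccnd2 was lower in KO cells by a log2 change of -1.15 ± 0.028 (SE; adjusted p = 2.46e-12), a level of 44.9% of WT. Only 1.45% of genes had a larger change in this comparison. With Cre-ERT2 the KO deficit was a log2 change of -0.68 ± 0.028 (adjusted p = 3.35e-10), 62.3% of WT.

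β-catenin lowered Ccnd2 in WT cells by a log2 change of -0.15 ± 0.028 (adjusted p = 0.00316) and raised it in KO cells by 0.32 ± 0.028 (adjusted p = 7.28e-06). The difference of these effects was 0.47 ± 0.039 log2 units (95% confidence interval 0.39 to 0.56; adjusted p = 1.88e-05), and 0.453% of genes had a larger one. The opposite directions did not rest on the log scale: unlogged means went from 14037 to 12631 in WT cells and from 6306 to 7867 in KO cells. Leaving out any single library kept this difference between 0.44 and 0.49.

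Ccnd3, encoding cyclin D3, the isoform on which pre-B cell expansion most depends (ENSMUSG00000034165, chr17:47505051-47599691, plus strand), was lower under either change. Its values were 15.22, 15.19 and 15.12 in ERT2 WT and 15.06, 15.10 and 15.05 in Cre-ERT2 WT libraries. They were 14.68, 14.71 and 14.72 in ERT2 KO and 14.53, 14.55 and 14.53 in Cre-ERT2 KO libraries. The 4 groups did not overlap.

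The KO label went with a Ccnd3 change of -0.47 ± 0.025 in ERT2 cells (adjusted p = 5.16e-09) and -0.53 ± 0.025 in Cre-ERT2 cells (adjusted p = 1.60e-09). β-catenin went with -0.11 ± 0.025 in WT cells (adjusted p = 0.0157) and -0.16 ± 0.025 in KO cells (adjusted p = 8.39e-04). The call in WT cells was lost without Cre-ERT2 WT replicate 1 or 3 or ERT2 WT replicate 1 or 2 (adjusted p = 0.0547, 0.0712, 0.0722 and 0.0617). The β-catenin effects in KO and WT cells differed by -0.058 (95% confidence interval -0.14 to 0.019).

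Ccnd1, encoding cyclin D1, the D cyclin of many non-lymphoid tissues (ENSMUSG00000070348, chr7:144929931-144939925, minus strand), had the lowest level of the 10, also per kilobase of merged exon. It read 6.16, 6.18 and 6.18 in ERT2 WT libraries and 6.16, 6.17 and 6.17 in Cre-ERT2 WT libraries. It read 6.97, 6.96 and 6.97 in ERT2 KO and 7.033, 7.004 and 7.019 in Cre-ERT2 KO libraries. All 6 KO libraries lay above all 6 WT libraries.

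Ccnd1 was higher in KO cells by 0.79 ± 0.020 in ERT2 libraries (adjusted p = 3.21e-12) and by 0.85 ± 0.020 in Cre-ERT2 libraries (adjusted p = 1.45e-12). The SD within the WT groups was 0.0082 and 0.0041. How low values were transformed is not stated, so the size of a change at this level is uncertain. β-catenin left a change of -0.0054 in WT cells (95% confidence interval -0.048 to 0.037) and of 0.053 in KO cells (adjusted p = 0.110).

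Per kilobase of merged exon, Ccnd3 was the most abundant D cyclin in every group. On that scale its level was 7.23 times that of Ccnd2 in ERT2 WT, 7.46 times in Cre-ERT2 WT, 11.6 times in ERT2 KO and 8.29 times in Cre-ERT2 KO cells. The Ccnd2 level was in turn 108 times that of Ccnd1 in ERT2 WT and 28.1 times in ERT2 KO cells. Both ratios to Ccnd1 are uncertain, because how its low values were transformed is not stated. The ratios also rest on merged exon lengths, 2447 bases for Ccnd3 and 6711 for Ccnd2. Whether the deposited values already carry a length correction is not stated. Within a library, where gene length and scaling cancel in a change, the log2 difference Ccnd3 minus Ccnd2 was 1.399 ± 0.055 in ERT2 WT, 1.44 ± 0.023 in Cre-ERT2 WT, 2.08 ± 0.050 in ERT2 KO and 1.60 ± 0.051 in Cre-ERT2 KO cells (SD, n = 3).

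β-catenin changed this balance by 0.046 in WT cells and by -0.48 in KO cells (exact 2-sided permutation p = 0.3 and 0.1). The KO label changed it by 0.68 in ERT2 and by 0.15 in Cre-ERT2 cells (exact permutation p = 0.1 each). A p of 0.1 is the smallest that 3 against 3 libraries allow, and became 0.114 after adjustment over the 8 tests of this kind.

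Cdk6, encoding the kinase that partners cyclin D3 in lymphoid cells (ENSMUSG00000040274, chr5:3341485-3531008, plus strand), had the largest KO difference of the 10. It stood at 12.04, 12.07 and 11.98 in ERT2 WT and at 12.26, 12.33 and 12.36 in Cre-ERT2 WT libraries. It stood at 13.33, 13.30 and 13.32 in ERT2 KO and at 13.51, 13.42 and 13.51 in Cre-ERT2 KO libraries. Each group lay wholly above the one before it in that order.

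Cdk6 was higher in KO cells by 1.28 ± 0.034 without Cre (2.43-fold; adjusted p = 5.30e-12) and by 1.16 ± 0.034 with Cre-ERT2 (2.24-fold; adjusted p = 1.31e-11). β-catenin raised it by 0.28 ± 0.034 in WT cells (adjusted p = 1.35e-04) and by 0.17 ± 0.034 in KO cells (adjusted p = 0.00608). The difference between these effects was -0.12 ± 0.047 and did not pass the test (95% confidence interval -0.22 to -0.015 before adjustment; adjusted p = 0.217).

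Cdk4, the other D cyclin kinase (ENSMUSG00000006728, chr10:127063534-127067920, plus strand), hardly varied. It read 13.03, 13.04 and 13.04 in ERT2 WT, and 13.07, 13.04 and 13.04 in Cre-ERT2 WT libraries. It read 13.05, 13.10 and 13.10 in ERT2 KO, and 13.11, 13.12 and 13.12 in Cre-ERT2 KO libraries. The WT groups overlapped each other, as did Cre-ERT2 WT and ERT2 KO.

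Cdk4 was called in 1 comparison, KO against WT in Cre-ERT2 cells, with a change of 0.068 ± 0.020 (adjusted p = 0.0105), which became 0.034 (adjusted p = 0.151) after each library was centred on its median. Its ERT2 KO change was 0.045 ± 0.020 (adjusted p = 0.0665). The β-catenin changes were 0.011 in WT cells (95% confidence interval -0.032 to 0.055) and 0.034 in KO cells (-0.0095 to 0.077).

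With Cdk6 up and Cdk4 nearly level, the kinase balance moved. The log2 difference Cdk6 minus Cdk4 within a library was -1.003 ± 0.048 in ERT2 WT, -0.73 ± 0.073 in Cre-ERT2 WT, 0.23 ± 0.048 in ERT2 KO and 0.36 ± 0.051 in Cre-ERT2 KO cells (SD, n = 3). It changed by 1.24 and 1.10 with the KO label in ERT2 and Cre-ERT2 cells, and by 0.27 and 0.13 with β-catenin in WT and KO cells (exact 2-sided permutation p = 0.1 each). Per kilobase of merged exon, the Cdk4 level was still 11.3 times that of Cdk6 in ERT2 WT and 4.78 times in ERT2 KO cells. Cdk6 has a merged exon length of 11525 bases against 2053 for Cdk4. This ratio therefore depends on how much of Cdk6 was counted and on any length correction already in the values.

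**Figure D2:**
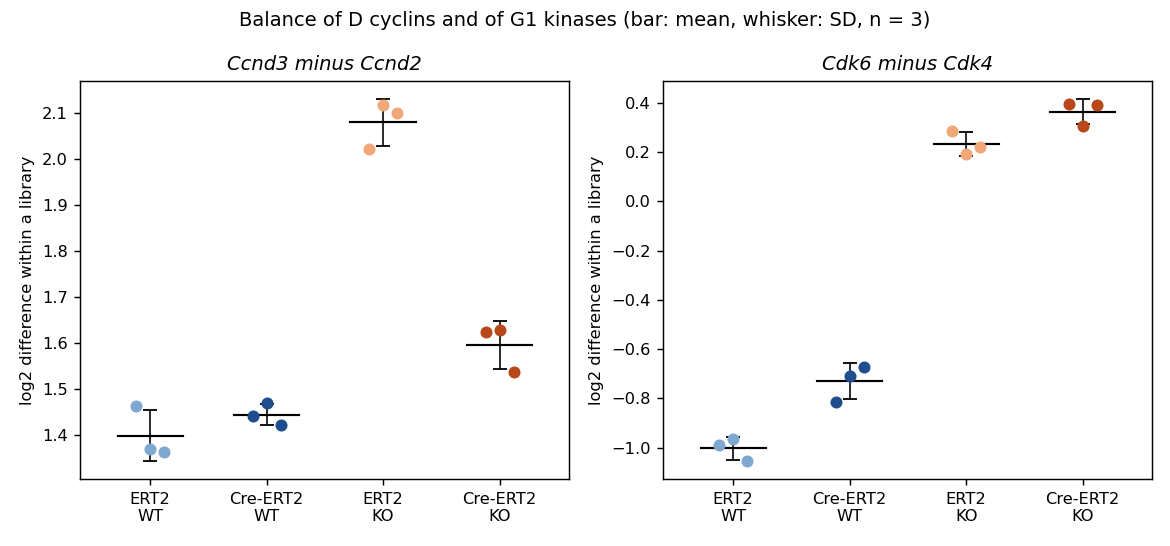
Within-library log2 difference (y axis) of Ccnd3 minus Ccnd2 (left) and Cdk6 minus Cdk4 (right) by group (x axis). Points are libraries, bars means and whiskers SD of 3. The D cyclin difference is highest in ERT2 KO cells (2.08) and the kinase difference rises from -1.003 in ERT2 WT to 0.36 in Cre-ERT2 KO cells.

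Cdkn2c, encoding the INK4 inhibitor p18 (ENSMUSG00000028551, chr4:109660876-109667189, minus strand), was lower in KO cells. It stood at 10.88, 10.92 and 10.91 in ERT2 WT and at 11.05, 10.98 and 11.01 in Cre-ERT2 WT libraries. It stood at 10.07, 10.17 and 10.15 in ERT2 KO and at 10.26, 10.22 and 10.26 in Cre-ERT2 KO libraries. Both KO groups lay below both WT groups, and within each the Cre-ERT2 libraries were higher.

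The Cdkn2c change with the KO label was -0.77 ± 0.030 in ERT2 and -0.76 ± 0.030 in Cre-ERT2 cells (adjusted p = 2.26e-10 and 2.39e-10). β-catenin raised it by 0.11 ± 0.030 in WT cells (adjusted p = 0.0288) and by 0.12 ± 0.030 in KO cells (adjusted p = 0.0181). The WT call was lost without Cre-ERT2 WT replicate 1 or 3 or any ERT2 WT library (adjusted p up to 0.112), and the KO call without Cre-ERT2 KO replicate 1 or 3 or ERT2 KO replicate 1 (adjusted p = 0.0556, 0.0525 and 0.0691).

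Cdkn1a, encoding p21, the inhibitor best known as a p53 target (ENSMUSG00000023067, chr17:29090976-29100727, plus strand), fell with the KO label and with β-catenin. Its values were 10.75, 10.69 and 10.66 in ERT2 WT and 10.57, 10.55 and 10.53 in Cre-ERT2 WT libraries. They were 9.99, 10.08 and 10.12 in ERT2 KO and 9.89, 9.89 and 9.90 in Cre-ERT2 KO libraries. No groups overlapped.

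The KO label went with a Cdkn1a change of -0.64 ± 0.033 in ERT2 and -0.66 ± 0.033 in Cre-ERT2 cells (adjusted p = 3.63e-09 and 2.62e-09). β-catenin went with -0.15 ± 0.033 in WT and -0.17 ± 0.033 in KO cells (adjusted p = 0.00855 and 0.00400). These last changes differed by -0.019 (95% confidence interval -0.12 to 0.081).

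Cdkn1b, encoding p27, an inhibitor restrained by the ubiquitin ligase subunit Skp2 (ENSMUSG00000003031, chr6:134920401-134925513, plus strand), went the other way from Cdkn1a. It read 10.23, 10.28 and 10.28 in ERT2 WT and 10.34, 10.33 and 10.35 in Cre-ERT2 WT libraries. It read 10.44, 10.40 and 10.48 in ERT2 KO and 10.49, 10.50 and 10.66 in Cre-ERT2 KO libraries. Replicate 3 of the last group stood apart from its other libraries.

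Cdkn1b was higher in KO cells by 0.18 ± 0.041 in ERT2 and 0.21 ± 0.041 in Cre-ERT2 libraries (adjusted p = 0.00227 and 7.50e-04). With β-catenin it changed by 0.082 ± 0.041 in WT and 0.11 ± 0.041 in KO cells, and neither passed the test (adjusted p = 0.242 and 0.105). Without Cre-ERT2 KO replicate 3 the KO change was 0.054, and the WT change, itself unaltered, passed the test (adjusted p = 0.0494).

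Rb1, encoding the retinoblastoma protein (ENSMUSG00000022105, chr14:73183673-73325822, minus strand), had the largest standard error of the 10. It stood at 11.38, 11.39 and 11.32 in ERT2 WT and at 11.35, 11.49 and 11.43 in Cre-ERT2 WT libraries. It stood at 11.27, 11.27 and 11.38 in ERT2 KO and at 11.13, 11.16 and 11.34 in Cre-ERT2 KO libraries. Every group overlapped its neighbour in rank, and replicate 3 was again the highest of the Cre-ERT2 KO libraries.

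Rb1 was called in Cre-ERT2 cells, where the KO label went with -0.21 ± 0.053 (adjusted p = 0.00420), but not in ERT2 cells (-0.056 ± 0.053; adjusted p = 0.392). β-catenin went with 0.059 ± 0.053 in WT and -0.096 ± 0.053 in KO cells (adjusted p = 0.555 and 0.291). The latter became -0.16 without Cre-ERT2 KO replicate 3 (adjusted p = 0.0409). The difference of these β-catenin effects, -0.16 ± 0.075, did not pass the test (adjusted p = 0.316).

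Rbl2, encoding the pocket protein p130 of quiescent cells (ENSMUSG00000031666, chr8:91070057-91123844, plus strand), was called nowhere. Its 12 values lay between 10.61 and 10.74. The largest of its changes was 0.071 with β-catenin in WT cells (95% confidence interval 0.017 to 0.13 before adjustment; adjusted p = 0.0891). Its KO changes were 0.023 in ERT2 cells and -0.046 in Cre-ERT2 cells (adjusted p = 0.450 and 0.134).

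**Figure D3:**
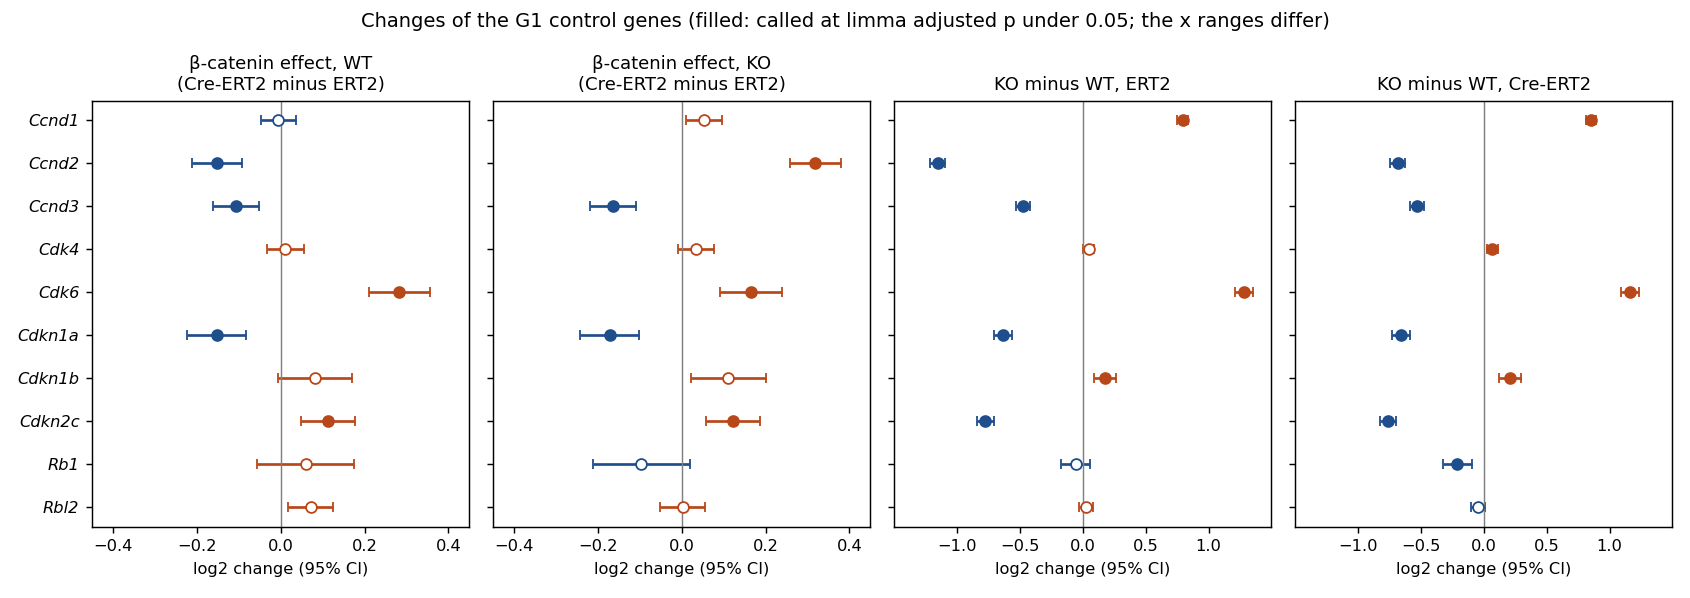
Log2 change (x axis, with the unadjusted 95% confidence interval) of the 10 genes (y axis) in the 4 comparisons of groups; filled points passed the limma test and the x ranges differ between the left and right pairs of panels. Cdk6 (1.28) and Ccnd2 (-1.15) moved farthest with the KO label in ERT2 cells.

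**Figure D4:**
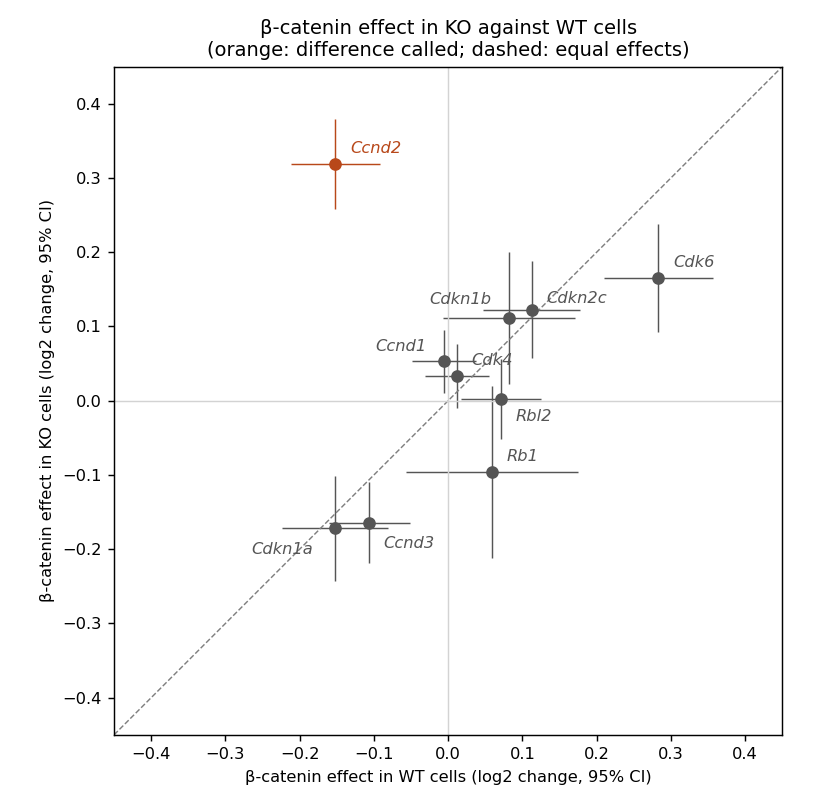
β-catenin effect of each gene in WT cells (x axis) against KO cells (y axis), in log2 units with 95% confidence intervals; the dashed line marks equal effects and orange a difference that passed the test. Ccnd2 alone passed, at -0.15 in WT and 0.32 in KO cells.

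Around these genes, 110 of 111 listed genes of the wider G1 pathway, some of them of S phase or mitosis, were in the table. With the KO label 77 were called in ERT2 cells (28 higher, 49 lower) and 79 in Cre-ERT2 cells (31 higher, 48 lower), shares of 70.0% and 71.8% against 59.0% and 58.9% of all genes. With β-catenin 20 were called in WT cells (11 higher, 9 lower) and 26 in KO cells (14 higher, 12 lower), shares of 18.2% and 23.6% against 11.9% and 12.6% of all genes. The β-catenin effect differed between KO and WT cells for 8 of them, 7.27% against 4.53% of all genes. Each share of a list called in ERT2 cells below stands against the 59.0% of all genes (29.8% higher, 29.3% lower). The lists, too, were chosen with earlier results of these data known, so their shares are descriptive. Named genes below are the largest called changes of each list.

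Among regulators that act above the D cyclins and CDK inhibitors, 17 of 22 (77.3%) were called with the KO label in ERT2 cells (6 higher, 11 lower; list median -0.084, all genes 0.0016). The 17 include Ikzf1, higher, and Ikzf3, lower, the genes whose editing defines the label. Myc, which induces Ccnd2 and Cdk4 and represses Cdkn1a in many cells, was higher by 1.10 ± 0.019, while the transcription factor Irf4 was lower by a change of -0.77 ± 0.027. β-catenin moved 10 of the 22 in WT cells (6 higher, 4 lower), 45.5% against 11.9% of all genes. The 10 include both edited genes, Ikzf3 (0.29 ± 0.043) and Ikzf1 (-0.062 ± 0.018; adjusted p = 0.0494). Pax5 changed by -0.22 ± 0.035 in WT and by -0.30 ± 0.035 in KO cells, and Irf4 rose by 0.51 ± 0.027 in KO cells. With β-catenin Myc changed by -0.62 ± 0.019 in WT cells and by -0.31 ± 0.019 in KO cells, a difference of 0.31 ± 0.027 (adjusted p = 2.70e-05). Tcf12, an E protein, changed by 0.31 ± 0.027 and 0.23 ± 0.027. For 5 of the 22 (22.7%, against 4.53% of all genes) the β-catenin effect differed. It was more positive in KO cells for Myc and Irf4 (0.25 ± 0.038). It was more negative for Ebf1 (-0.19 ± 0.039) and Foxo1 (-0.18 ± 0.044), both B cell commitment factors. The last of the 3 on that side was Ikzf1, an edited gene (-0.10 ± 0.026; adjusted p = 0.0422).

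Of 5 other CDK inhibitors, 4 (80.0%) were called with the KO label in ERT2 cells (2 higher, 2 lower). The falls were Cdkn3 (-0.21 ± 0.041) and Cdkn2d (-0.24 ± 0.097; adjusted p = 0.0464), whose low values overlapped between the groups. The same share in Cre-ERT2 cells included Cdkn1c, called on a change of -0.035 ± 0.0061. It lay near the lowest values, at 2.45 in WT and 2.41 in KO cells. Cdkn2a, whose locus encodes p16 and p19Arf from overlapping transcripts that gene-level values cannot separate, was higher by 0.73 ± 0.045 in ERT2 and by 1.34 ± 0.045 in Cre-ERT2 cells. Its neighbour Cdkn2b, encoding p15, was higher by 0.26 ± 0.019 and 0.41 ± 0.019. Like Ccnd2, Cdkn2a changed in opposite directions with β-catenin, by -0.20 ± 0.045 in WT and 0.42 ± 0.045 in KO cells, a difference of 0.61 ± 0.064 (adjusted p = 1.05e-04).

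The E2F and DP factors with the pocket protein Rbl1 numbered 11, of which 7 (63.6%) were called with the KO label in ERT2 cells (1 higher, 6 lower, median -0.13). In Cre-ERT2 cells 6 were called (54.5%, against 58.9% of all genes), 2 higher and 4 lower, with a median of -0.014. E2f2, an activator E2F, changed by -1.04 ± 0.041 in ERT2 and in Cre-ERT2 cells, and Tfdp2, an E2F partner, by 0.24 ± 0.044 in ERT2 cells. The 33 E2F target genes of S phase entry had 22 (66.7%) called in ERT2 cells (4 higher, 18 lower; median -0.069) and 27 (81.8%, against 58.9% of all genes) in Cre-ERT2 cells (8 higher, 19 lower; median -0.075). The uracil glycosylase gene Ung (-0.40 ± 0.043) and the maintenance methylation factor Uhrf1 (-0.37 ± 0.031) were the lowest in ERT2 cells, and the thymidine kinase Tk1 (0.37 ± 0.041) and licensing factor Cdt1 (0.24 ± 0.024) the highest. With β-catenin 2 of the 33 (6.06%, against 11.9% of all genes) were called in WT cells and 7 (21.2%, against 12.6%) in KO cells (2 higher, 5 lower), where Cdt1 changed by -0.19 ± 0.024.

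Of 12 genes listed with cyclins E, A and the CDK2 axis, 8 (66.7%) were called with the KO label in ERT2 cells (2 higher, 6 lower; median -0.093). The list also holds Ccnb1, Ccnb2, Cdk1, Cdc25b, Cdc25c, Wee1 and Pkmyt1, genes of entry into mitosis. Its count and median are therefore not those of cyclins E, A and CDK2 alone. The called rises were Ccnb1 (0.17 ± 0.035) and Cdc25c (0.14 ± 0.035). The phosphatase Cdc25b changed by -0.52 ± 0.028 and cyclin E1, Ccne1, by -0.42 ± 0.053. Cdc25b rose with β-catenin by 0.28 ± 0.028 in WT and by 0.095 ± 0.028 in KO cells, a difference of -0.18 ± 0.040 (adjusted p = 0.0226). Of 7 genes listed for the DREAM and MuvB complexes, with Mybl2 and Foxm1 among them, 6 (85.7%) were called in ERT2 cells (1 higher, 5 lower, median -0.11). Mybl2 changed by 0.26 ± 0.036 and Lin9 by -0.18 ± 0.028.

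Of 15 genes for the degradation of G1 regulators, 10 (66.7%) were called in ERT2 cells (9 higher, 1 lower, median 0.11), led by the cullin Cul4a at 0.43 ± 0.028. In Cre-ERT2 cells 7 were called (46.7%, against 58.9% of all genes), all higher, with a median of 0.079. Skp2, which marks p27 for destruction, was higher by 0.27 ± 0.031 in Cre-ERT2 cells. Of 5 genes of the CDK-activating kinase and of CDK folding, 3 (60.0%) were called in ERT2 cells, all higher, including the CDK4 and CDK6 chaperone Cdc37 (0.27 ± 0.029 in ERT2 cells). Their share in Cre-ERT2 cells was again 60.0%. In Cre-ERT2 cells the upstream regulators reached 81.8%, the other CDK inhibitors 80.0%, the cyclin E and A list 66.7% and the DREAM and MuvB list 85.7%.

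**Figure D5:**
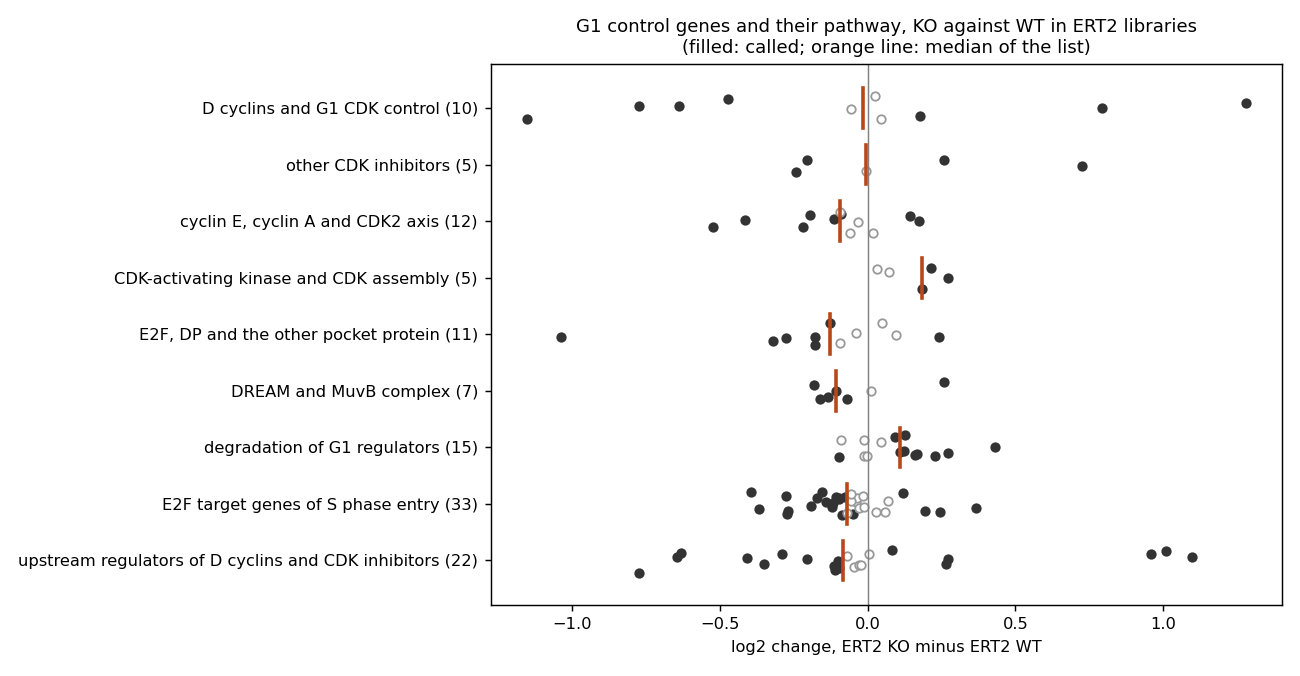
Log2 change of ERT2 KO against ERT2 WT libraries (x axis) for the 10 genes and the genes of 8 pathway lists (y axis, number of genes in parentheses). Filled points were called and the orange line is the median of a list, which runs from -0.13 for the E2F list to 0.18 for the CDK-activating kinase list; the vertical scatter within a row carries no value.

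The genes with the pattern nearest to a given gene were found by Euclidean distance between the 12 values after each gene's own mean was removed, among the 6075 genes above the median level. Epb4.1, Gbp3 and Tuba1a lay nearest to Ccnd2 (distance 0.35 to 0.39; Pearson's r 0.97 to 0.98). Limd2, Fam53b and Pigt lay nearest to Ccnd3 (0.14 to 0.16; r 0.99), and Cep164, Gm8995 and Ctnna1, the α-catenin gene, to Cdk6 (0.18 to 0.37; r 0.99 to 1.00). Spag5, Hdac3 and Gins4 lay nearest to Cdk4 (0.057 to 0.071), Lims1, Trim24 and Tpx2 to Cdkn1b (0.12) and Ppp1r11, Manea and Cab39 to Rb1 (0.15). The 12 libraries fall into 4 groups, so these values rest on few independent points and describe likeness only.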

How the data were processed

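RNA-seq libraries were made from 280 ng of total RNA with a stranded mRNA kit and 10 PCR cycles. Per the labels and the study's methods, transcripts were quantified with Salmon 1.4.0, reads were aligned with STAR 2.7.6 to GRCm38 (GENCODE vM24) and expression was analysed with DESeq2 1.30.1. The authors deposited 1 table with a value per gene and library, taken here as normalized log2 values from their range and the like medians of the libraries. Neither the normalization nor the transformation behind them is given in the sources used here.

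The 12 libraries were grouped by title and genotype. The study's count model could not be applied to log2 values, so limma 3.58.1 in R 4.3.3 (lmFit, contrasts.fit, eBayes with trend) was fitted to all 4 groups and 12151 genes, with Benjamini-Hochberg adjustment and calls at adjusted p under 0.05. It was first tested on simulated data. Standard errors and confidence intervals come from this fit. Exact 2-sided permutation tests compared within-library differences. Coordinates and merged exon lengths are from GENCODE vM21 (GRCm38), promoters from RefSeq (GRCm38.p6) and guides from the study's supplementary tables. The genes and the pathway and marker lists were chosen with earlier results of these data known. A further pre-B cell marker is not reported here and was left out of the summed level. Genes named from a list are up to 2 of its largest called rises and falls per comparison, and genes of like pattern the 3 nearest to each of 6 genes. Alternatives were 2 other scalings, 2 pseudocounts, a filter on the mean, eBayes without trend, fits on the compared groups alone, a stricter threshold, a replicate block and leaving out each library.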

Additional observations from a re-analysis of the deposited data

Results flagged for a closer look

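Ccnd2 was singled out because the test of the difference itself found its β-catenin effect to differ between KO and WT cells, by 0.47 ± 0.039 log2 units (limma, adjusted p = 1.88e-05). The 3 Cre-ERT2 WT libraries all lay below the 3 ERT2 WT libraries, and the 3 Cre-ERT2 KO libraries all lay above the 3 ERT2 KO libraries. Groups of 3 libraries are too small for the test of single outlying samples, which was not run.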

How the results depend on the processing

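Over 21 alternatives, 1004 of 1040 changes of the 10 genes kept their direction and side of the threshold, 20 lost and 6 gained a call, and 10 changed sign, none of them called. After quantile normalization these were Cdk4 with β-catenin in WT cells (-0.0077) and the difference of β-catenin effects for Cdkn2c (-0.0052), and after median centring Rbl2 with β-catenin in KO cells (-0.0050) and with the KO label in ERT2 cells (-0.0090). Leaving out single libraries, Rbl2 with β-catenin in KO cells ranged from -0.012 (without Cre-ERT2 KO replicate 3) to 0.0098, and was -7.0e-05 without ERT2 KO replicate 2. The difference of effects ranged from -0.020 (without ERT2 KO replicate 1) to 0.030 for Cdkn2c, with -0.0078 without Cre-ERT2 WT replicate 2, from -0.028 (without Cre-ERT2 KO replicate 3) to 0.061 for Cdkn1b, and from -0.055 to 0.0070 (without ERT2 KO replicate 3) for Cdkn1a. The cause was not tested.

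With β-catenin in WT cells 3 of the 10 genes were called at adjusted p under 0.01. At that threshold the β-catenin comparisons called 787 (WT) and 790 (KO) of all 12151 genes, and the test of their difference 240. When single libraries were left out, 3 to 6 of the 10 genes were called in WT cells at adjusted p under 0.05. Over the same omissions 1026 to 1659 of all genes were called. A fit on the compared groups alone called 934 genes in KO cells. In that fit Ccnd3 in WT cells and Cdkn2c in KO cells lost their calls (adjusted p = 0.0645 and 0.0737). Median centring lowered the higher share of KO calls from 50.4% to 37.6% in ERT2 cells and from 51.5% to 38.4% in Cre-ERT2 cells, and Rbl2 was then called in the latter (-0.079, adjusted p = 0.0165). Cdk4 was called with the KO label in ERT2 cells after quantile normalization or without ERT2 KO replicate 1 (adjusted p = 0.0145 and 0.0175), and Ccnd1 with β-catenin in KO cells without the trend (adjusted p = 0.0320).

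Replicate numbers showed no pairing of the libraries. Same-numbered libraries of different groups had deviations correlated by -0.091 to 0.31 over 18 pairs. Their median was -0.0055, against -0.0104 for libraries of other numbers. Differently numbered Cre-ERT2 libraries reached 0.356 (KO replicate 3 with WT replicate 2) and -0.355 (KO replicate 1 with WT replicate 2). With the number as a replicate block, Cdkn2c in WT cells lost its call (adjusted p = 0.0504), and 1361, 1374, 7089, 7108 and 424 genes were called in the 5 comparisons, against 1443, 1531, 7175, 7161 and 550 without it. Read depth is unknown, so the precision of low values such as those of Ccnd1 could not be judged.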
